A study of Caenorhabditis elegans with 2 samples.

Results

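The regions described here are the ZTF-18 binding sites on the X chromosome of Caenorhabditis elegans that do not lie at transfer RNA genes. They were taken from the deposited list of reproducible peaks on the ce11 assembly as every X peak whose summit lay more than 150 bp from an annotated tRNA gene. That rule kept 200 of the 376 X peaks in a list of 2465, and the same rule kept 1853 of 2073 autosomal peaks for comparison. The data are chromatin immunoprecipitation followed by sequencing (ChIP-seq) for ZTF-18, a zinc finger protein. The group is strain OP496, hermaphrodites that stably carry ZTF-18 fused at its C-terminus to GFP and FLAG, harvested as young adults 64 hours after they were synchronized as starved L1 larvae. An antibody to GFP was used on whole animals, with 2 biological replicates and no second genotype, stage or treatment. Because whole animals were used, sites bound in few cells and sites bound weakly in all cells cannot be told apart, and the tagged protein comes from a transgene.

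The X chromosome has a particular place in worm biology. Hermaphrodites carry a pair of X chromosomes and males carry a single one, and in the hermaphrodite soma a dosage compensation complex binds both X chromosomes and lowers their expression. The complex first loads at recruitment sites on X (rex sites), which share a short sequence called the MEX motif. In the germ line, X chromosomes are largely silent, and X is poor in genes that the germ line or every cell needs. X is also rich in tRNA genes, which is why peaks at those genes were set aside here. In these animals X has the same copy number as an autosome.

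X held fewer of these sites per length of DNA than any autosome. There were 11.3 sites per Mb on X (95% Poisson interval 9.78 to 13.0), against 22.4 per Mb on the autosomes (21.4 to 23.5), a ratio of 0.503 (exact two-sided binomial test, p = 5.56e-24, Benjamini-Hochberg adjusted p = 5.00e-23 over 9 comparisons). The lowest autosome was V with 16.7 per Mb and the highest was III with 30.8 per Mb. X also has fewer protein-coding genes per Mb, 154 against 209, and per protein-coding gene the ratio was 0.681 (exact binomial adjusted p = 3.44e-07). Against only the middle of each autosome (its central 50% by length), the ratio was 0.401. Replicate 1 alone gave 11.4 per Mb on X and 22.6 on the autosomes, and replicate 2 alone gave 11.1 and 22.3.

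**Figure D1:**
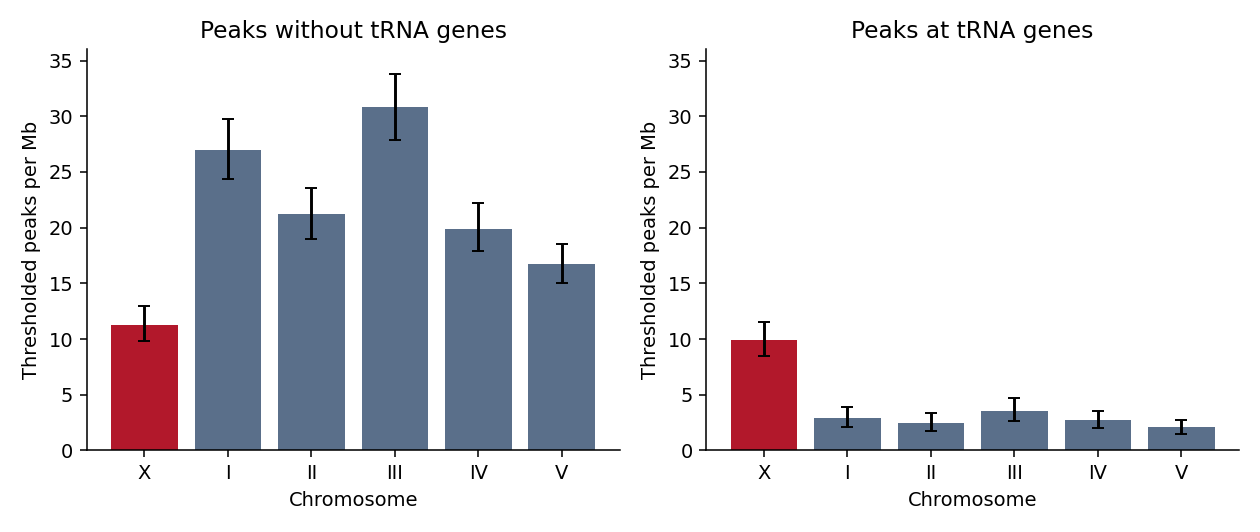
Thresholded peaks per Mb on X (red, left) and on the 5 autosomes (grey), for peaks without tRNA genes (left panel) and peaks within 150 bp of a tRNA gene (right panel). Bars are counts per Mb and error bars are 95% Poisson intervals; X has 11.3 per Mb in the left panel and 9.93 in the right, where the autosomes have 2.06 to 3.55.

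The tRNA rule had a large effect on X. Of all X peaks, 176 (46.8%) were at tRNA genes, against 220 (10.6%) of autosomal peaks, and X carries 276 of the 612 nuclear tRNA genes (45.1%). With those peaks kept, X had 21.2 peaks per Mb against 25.1 on the autosomes, a ratio of 0.845 (exact binomial p = 0.00252). The 150 bp distance fell in a sparse stretch: 166 X summits were within 50 bp of a tRNA gene, 10 between 50 and 150 bp, and 2 between 150 and 300 bp. The nearest summits kept were at 167 bp (signal 98.0), 183 bp (109.5) and 322 bp (270.3, upstream of C25F6.1). The farthest set aside were at 91 bp (rank 2168), 120 bp (95.8) and 129 bp (1179, bound genes C28G1.2 and sec-15).

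Every printed sequence below is taken from the RefSeq WBcel235 assembly, the same build as ce11. The first set shows 101 bases centred on the summit for the 4 strongest X sites and for the strongest site in an intron, just downstream of a gene and in other intergenic DNA. Capitals mark any of 10 words of 6 bases that stood out at autosomal summits. Ranked 1 among them was GACGCA, ranked 2 was GGCGCA, ranked 3 was GCGCCA, ranked 4 was ACGCGC and ranked 5 was ACGCAG. Ranked 6 was CGTCTC, ranked 7 was AACGCG, ranked 8 was ATGCGC, ranked 9 was CGCGCC and ranked 10 was AGAGAC. These words were ordered on chromosomes II and IV alone, by how much more often they occurred within 50 bp of a summit than at 250 to 300 bp from it, both strands counted. Several of them overlap one another by letters.
C14A11.9 promoter, chrX:2809749-2809849, plus strand: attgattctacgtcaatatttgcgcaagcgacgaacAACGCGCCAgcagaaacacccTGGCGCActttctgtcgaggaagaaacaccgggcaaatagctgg
pkhm-2 promoter, chrX:15181588-15181688, plus strand: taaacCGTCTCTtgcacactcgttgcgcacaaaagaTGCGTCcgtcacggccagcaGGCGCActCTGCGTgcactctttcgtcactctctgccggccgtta
sec-3 promoter, chrX:3099975-3100075, plus strand: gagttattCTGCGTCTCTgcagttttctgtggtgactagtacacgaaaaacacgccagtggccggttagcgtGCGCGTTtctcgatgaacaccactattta
mans-3 promoter, chrX:5165179-5165279, plus strand: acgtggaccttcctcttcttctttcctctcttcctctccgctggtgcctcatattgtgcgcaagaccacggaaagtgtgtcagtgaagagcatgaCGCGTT
rme-4 intron, chrX:10377794-10377894, plus strand: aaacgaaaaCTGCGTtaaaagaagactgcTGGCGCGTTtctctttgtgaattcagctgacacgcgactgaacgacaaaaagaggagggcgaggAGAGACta
downstream of F47G3.4, chrX:2382366-2382466, plus strand: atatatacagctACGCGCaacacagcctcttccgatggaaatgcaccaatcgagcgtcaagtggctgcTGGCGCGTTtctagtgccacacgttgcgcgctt
intergenic, toward Y73B3A.1, chrX:34560-34660, plus strand: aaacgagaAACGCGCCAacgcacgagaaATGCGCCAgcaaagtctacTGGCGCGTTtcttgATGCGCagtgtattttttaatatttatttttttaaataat

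The strongest X sites lay in promoters, mostly a short way upstream of the annotated gene start. Signal here is the authors' value for each peak, on a scale that is not stated, and it serves to rank and describe peaks. The site of highest signal was upstream of C14A11.9 (chrX:2809444-2810164), with a pooled signal of 3678, 2118 in replicate 1 and 1585 in replicate 2. Next were the sites at pkhm-2 (2943 pooled, 1758 in replicate 1 and 1228 in replicate 2) and at sec-3, an exocyst subunit gene (2739, 1560.0 and 1194 in the same order). These 3 sites ranked 36, 55 and 63 in the whole list, and their summits lay 162, 173 and 173 bp upstream of the annotated 5′ ends. Replicate 1 gave the higher value at each of the 3, and over all members the median log2 ratio of replicate 1 to replicate 2 was 0.43 on X and 0.45 on the autosomes.

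The next sites down the list lay at mans-3, named for the alpha-mannosidases (2440.1), C05G5.2 (2130.2), uggt-1, which encodes a glucosyltransferase that checks glycoprotein folding in the endoplasmic reticulum (2085), and ucr-2.2, a core subunit of mitochondrial complex III (2055). Then came hst-2, a heparan sulfate 2-O-sulfotransferase gene (1967), gob-1, which encodes a trehalose-6-phosphate phosphatase (1964), F17E5.2 (1870.1) and F35A5.8 (1693). The site at gfi-3, which encodes a subunit of the anaphase-promoting complex, had a signal of 1655. Among the mitochondrial genes, sdha-1 (the flavoprotein of complex II) had 1517, idhb-1 (isocitrate dehydrogenase) 1287 and immt-1 (a mitofilin of the inner membrane) 1184. The last promoter sites among the 20 strongest lay at dyn-1, the dynamin gene (1026), at Y34B4A.7 and the myotubularin-related mtm-5, which share a summit (1017), and at gakh-1, a homologue of the clathrin-uncoating kinase GAK (1004). Of these 20 sites, 18 were in promoters, and none ranked below 223 in either replicate.

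Most distances were short, with 12 of the 20 summits lying 100 to 260 bp upstream of the nearest bound 5′ end. The exceptions among the promoter sites were hst-2 at 12 bp upstream, F35A5.8 at 54 bp, Y34B4A.7 at 96 bp, dyn-1 at 421 bp and gob-1 at 685 bp, with idhb-1 at 12 bp downstream (an upstream distance of -12). Trans-splicing of many worm transcripts hides where transcription began, so these distances are to the annotated start only. Over all 118 promoter sites on X the median upstream distance was 248 bp (quartiles 120.2 and 482), against 187 bp (74.0 and 338) over 1171 autosomal promoter sites. Each distance is to the nearest bound gene. On the autosomes 39.4% of promoter summits had 2 or more bound genes, against 9.32% on X, so the medians are not directly comparable.

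Strong sites outside promoters were fewer. The strongest was in an intron of rme-4, which encodes a DENN-domain protein of endocytic recycling (chrX:10377545-10378135), with a pooled signal of 1346, 804 in replicate 1 and 555 in replicate 2. An intron of F40B5.2 held a site of 1287, and an intron of sym-3 one of 831. A site 81 bp past the 3′ end of F47G3.4 had a signal of 1003, and a site 837 bp past the 3′ end of C25A11.2 had 383. In intergenic DNA the strongest were near the left end of the chromosome, 8022 bp past the 3′ end of Y73B3A.1 (699.7), and 1182 bp upstream of ekl-5 (540.0). A site in the first exon of F52H2.5 had 448.

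**Figure D2:**
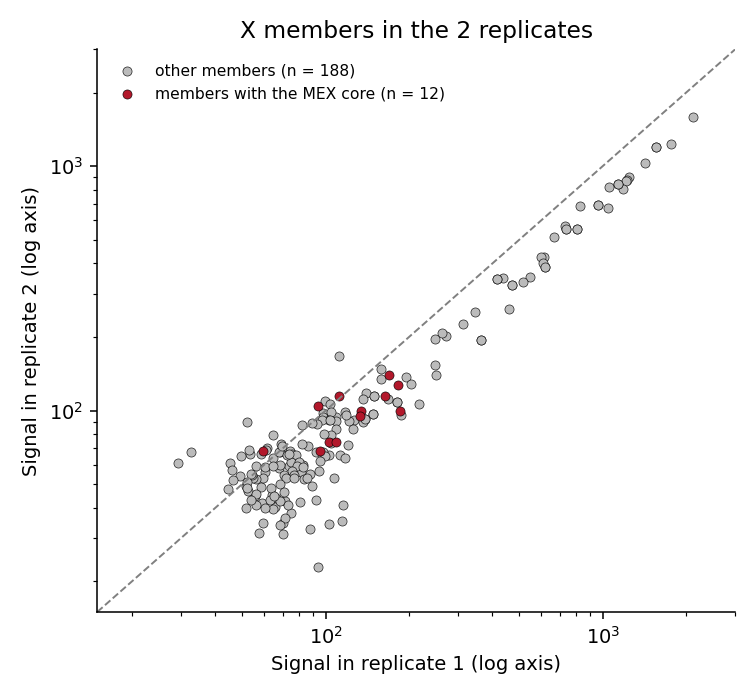
Signal of each of the 200 X members in replicate 1 (x axis) and replicate 2 (y axis), both on log axes, with the line of equal values dashed. Values are those of the strongest overlapping replicate peak, so some weak members carry the value of a stronger neighbour. Members with the MEX core (red, n = 12) lie between 59.2 and 186.0 in replicate 1 and between 68.1 and 139.5 in replicate 2, below the strongest members (2118 and 1585).

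Signal on X had a median close to that of the autosomes and a lower maximum. The median was 147 on X and 149.7 on the autosomes, and the highest was 3678 on X and 11118 on the autosomes, where 32 sites were stronger than any on X. Of the X members 41 of 200 (20.5%) were among the 500 strongest peaks, against 418 of 1853 (22.6%) on the autosomes, a difference that did not pass (two-sided Fisher's exact adjusted p = 0.775). X supplied 4 of 94 sites at ranks 1 to 100 (4.26%, exact 95% interval 1.17 to 10.5), 22 of 142 at ranks 101 to 250 (15.5%, 9.97 to 22.5) and 15 of 223 at ranks 251 to 500 (6.73%, 3.81 to 10.9). In the weakest peaks of the relaxed list, ranks 20001 to 30000, the share was 14.4% (13.7 to 15.1), still under the 17.7% of nuclear sequence that X makes up. The same low, high and low order over the first 3 ranges appeared in replicate 1 (4.26, 14.9 and 7.69%) and in replicate 2 (5.43, 14.6 and 5.45%), and neighbouring intervals overlap.

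**Figure D3:**
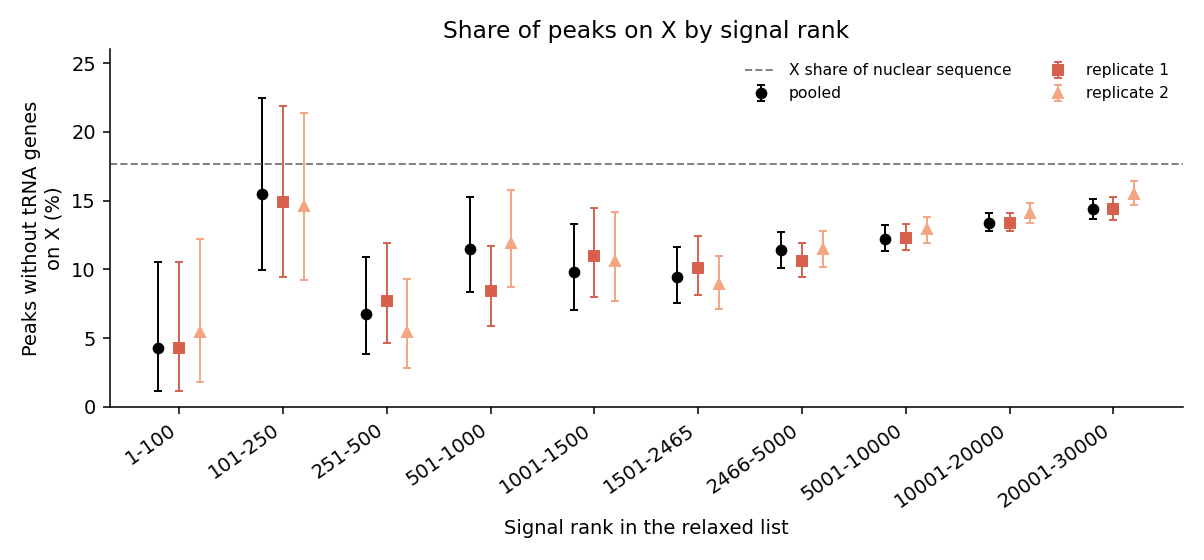
Percent of peaks without tRNA genes that lie on X (y axis), by signal rank in the relaxed list (x axis), for the pooled list (black) and replicates 1 and 2 (red and orange). Error bars are exact 95% intervals, and the dashed line is the 17.7% of nuclear sequence on X; the pooled share is 4.26% at ranks 1 to 100, 15.5% at ranks 101 to 250 and 14.4% at ranks 20001 to 30000.

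Both replicates carried the X sites as often as the autosomal ones. A peak of the 2465 strongest in each replicate overlapped 150 of 200 X members (75%, exact 95% interval 68.4 to 80.8), against 1387 of 1853 autosomal members (74.9%, 72.8 to 76.8; Fisher's exact adjusted p = 1.00). Another 22 X members had such a peak in replicate 1 only, 24 in replicate 2 only and 4 in neither, while all 200 overlapped some peak in both relaxed lists. The listed peaks are the strongest of the pooled signal, so this overlap was partly built in. On X, 8 entries shared their interval with an earlier entry but had another summit, as at nhr-48, and such pairs share their replicate values. Some other weak members also took the values of a stronger neighbour. The weaker summit at gfi-3 (pooled signal 106) was given 965 and 695, from replicate summits 211 and 215 bp away. With top replicate summits required within 100 bp, the shares were 67.0% on X and 66.5% on the autosomes (Fisher's exact adjusted p = 0.937).

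Protein-coding genes on X were bound less often than those on autosomes. A gene counted as bound when a member summit fell in its promoter, taken as the 1000 bp before its 5′ end and the 200 bp after it, which held for 7.77% of all nuclear genes. On X it held for 120 of 2731 genes (4.39%) and on the autosomes for 1431 of 17242 (8.30%; two-sided Fisher's exact adjusted p = 2.07e-13). Chromosome V was the lowest autosome at 5.31%. In the stronger part of the list, split at its median signal, the shares were 2.42% on X and 4.25% on the autosomes (Fisher's exact adjusted p = 9.04e-06). These tests take each peak or gene as a unit, and neighbours are not independent. Genes that share a summit were each counted as bound. Of promoter summits, 39.4% on the autosomes and 9.32% on X had 2 or more bound genes, so shared summits added more to the autosomal count.

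Families of tissue-specific and regulatory genes on X had at most 1 bound gene each. Of 27 cuticle collagen genes on X none was bound (2 of 129 on autosomes), nor were any of 25 acetylcholine receptor and other ligand-gated channel genes (0 of 57), 14 potassium channel genes (0 of 39), 5 vitellogenin genes, which encode yolk proteins (0 of 1), or 5 muscle genes (0 of 11). Of 34 neuropeptide and insulin-like genes, ins-39 was bound (signal 121; autosomes 1 of 106), and of 23 nuclear hormone receptor genes, nhr-48 (529 and 307 at a pair of summits; autosomes 5 of 246). Of 20 homeobox genes and of 6 genes of sex determination and X counting, ceh-39 was bound, a onecut homeobox gene that acts as an X signal element when the embryo counts its X chromosomes. Its signal was 106, with 58.9 in replicate 1 and 42 in replicate 2, near the bottom of the list at rank 2092. Autosomes had 2 of 53 homeobox genes and 1 of 11 sex determination genes bound. Read against the 4.39% of all X genes, these families hold too few bound genes for any difference to be read. The gene for ZTF-18 itself lies on chromosome III, and no member summit was in its promoter.

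X promoter sites were seldom shared between a pair of genes that point away from each other. Of 118 promoter summits on X, 11 (9.32%, exact 95% interval 4.75 to 16.1) had bound genes on both strands, against 429 of 1171 on the autosomes (36.6%, 33.9 to 39.5), where single chromosomes ran from 33.0 to 40.1%. Examples are the shared summits at trap-2 and ile-2 (signal 282) and at nmat-1 and ucr-2.1 (200.1). X has less such sequence to begin with: 3.74% of promoter bases on X lie in the windows of genes on both strands, against 10.7% on the autosomes. This comparison was chosen after the values were seen and was not tested.

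Sites outside genes made up a larger part of the X set. Summits downstream of genes or in other intergenic DNA were 49 of 200 on X (24.5%, exact 95% interval 18.7 to 31.1), against 272 of 1853 on the autosomes (14.7%, 13.1 to 16.4; two-sided Fisher's exact adjusted p = 0.00195), where single chromosomes ran from 12.7 to 18.3%. The call was lost in the stronger part of the list (21.1 against 12.2%, Fisher's exact adjusted p = 0.0532), and with promoters cut to 500 bp the shares were 39 and 21%. Such DNA is also more of X, 32.3% of its sequence against 23.5%. Per Mb of such DNA the sites were fewer on X: 8.56 (95% Poisson interval 6.33 to 11.3) against 14 (12.4 to 15.8). Promoters held 37.8 sites per Mb on X (31.3 to 45.3) and 63.6 on the autosomes (60.1 to 67.4), introns 5.27 (3.47 to 7.67) and 11.1 (9.85 to 12.5), and exons after the first 0.863 (0.178 to 2.52) and 5.57 (4.53 to 6.78).

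**Figure D4:**
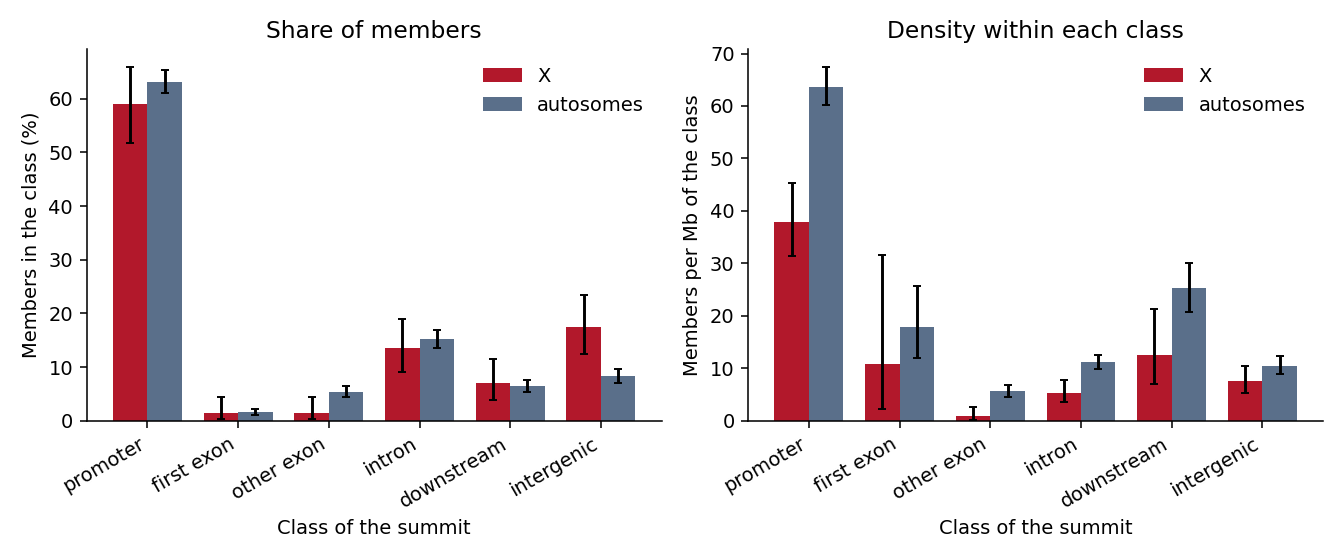
Left, percent of members in each class of summit position on X (red) and the autosomes (grey), with exact 95% intervals. Right, members per Mb of sequence in the same class, with 95% Poisson intervals; intergenic sites are 17.5% of X members and 8.31% of autosomal members, while promoters hold 37.8 per Mb on X and 63.6 per Mb on the autosomes.

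The shares in the main genic classes did not differ past the threshold. Promoters held 118 of 200 X members (59.0%) and 63.2% of autosomal members (Fisher's exact adjusted p = 0.448), and introns 13.5% and 15.2% (adjusted p = 0.775, Fisher's exact test). The promoter share did pass with promoters cut to 500 bp upstream, at 44.5% on X and 54.7% on the autosomes (Fisher's exact adjusted p = 0.0160), and against the middle of the autosomes, at 59.0 and 67.6% (adjusted p = 0.0339, Fisher's exact test). Among ranks 1 to 500 the promoter shares were 75.6% (31 of 41) on X and 76.6% on the autosomes.

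Few X sites lay near genes for other small structured RNAs. Genes for snoRNA, snRNA or miRNA were within 150 bp of 6 of 200 X summits (3%), against 145 of 1853 autosomal summits (7.83%; two-sided Fisher's exact adjusted p = 0.0221), where single chromosomes ran from 5.42 to 10.2%. In the stronger part of the list the shares were 2.11% (2 sites) and 11.3% (Fisher's exact adjusted p = 0.00706). These shares depend on how many such genes X and the autosomes carry, which was not counted, so they do not show avoidance of these genes. The X sites were next to 4 snoRNA genes, 1 snRNA gene and 1 miRNA gene. The strongest was the sdha-1 promoter site, 32 bp from the gene D2021.6, and the next was 47 bp from C53B7.8 (signal 255). The others had ranks from 1491 to 2167, including the site 8 bp from cel-mir-8196a (115).

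Of 6 motifs searched, the MEX core, GCGCAGGG read on either strand, was the one whose share differed between X and autosomal sites past the threshold. It is part of the motif found at the recruitment sites of the dosage compensation complex. Whether the sites counted here are known recruitment sites was not tested, and a core match alone does not make them so. The core lay within 50 bp of 12 of 200 X summits (6.00%, exact 95% interval 3.14 to 10.2), against 4 of 1853 autosomal summits (0.216%, 0.0588 to 0.552), a difference of 5.78 percentage points (two-sided Fisher's exact p = 6.87e-10, adjusted p = 4.12e-09 over 6 motifs). In windows of 101 bp tiled along the genome it occurred in 0.0388% on X and 0.0263% on the autosomes. Of its 81 occurrences on X, 13 were at a member summit (16.0%), against 4 of 233 on the autosomes (1.72%). The contrast was smaller by wider counts. Anywhere inside a member peak lay 15 of the X occurrences and 9 of the autosomal ones, and inside any peak of the pooled relaxed list 37 and 58. At 3 of these 4 autosomal summits, the summit lay inside an annotated snRNA gene, and without autosomal members within 150 bp of snRNA genes the counts were 12 on X and 1 on the autosomes (Fisher's exact adjusted p = 4.75e-11). The test was added after the shares had been seen.

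The X sites with the core are shown next, each as the 8 core bases in capitals with 14 bases on each side, read in the direction of the core. The site in the mom-1 intron has a pair of cores and appears on 2 lines, and the one at R04E5.9 overlaps a UTR and is left out.
pks-1 exon, chrX:5429576-5429611, plus strand: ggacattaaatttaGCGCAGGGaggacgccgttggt
nspc-17 promoter, chrX:14525886-14525921, minus strand: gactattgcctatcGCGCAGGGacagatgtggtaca
intergenic near W02H3.3, chrX:11094111-11094146, minus strand: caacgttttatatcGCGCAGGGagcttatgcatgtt
mom-1 intron, chrX:6296534-6296569, plus strand: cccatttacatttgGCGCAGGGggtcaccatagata
mom-1 intron, chrX:6296562-6296597, plus strand: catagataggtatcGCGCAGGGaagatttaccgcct
downstream of F25E2.2, chrX:806660-806695, plus strand: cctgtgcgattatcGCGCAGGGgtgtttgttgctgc
Y41G9A.17 intron, chrX:2997109-2997144, minus strand: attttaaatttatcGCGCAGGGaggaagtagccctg
intergenic between F20B6.9 and hpk-1, chrX:4209252-4209287, minus strand: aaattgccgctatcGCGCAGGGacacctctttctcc
intergenic near F22H10.2, chrX:16682158-16682193, minus strand: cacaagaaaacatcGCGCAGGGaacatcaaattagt
downstream of WBGene00020828, chrX:1837878-1837913, plus strand: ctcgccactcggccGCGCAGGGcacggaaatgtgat
downstream of lgc-40, chrX:2364885-2364920, minus strand: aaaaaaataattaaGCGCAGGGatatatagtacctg
ins-39 promoter, chrX:1345042-1345077, plus strand: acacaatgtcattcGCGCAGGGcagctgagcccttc

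At these sites the cores lay close to the summits, with a median of 21 bp between the core's centre and the summit. In 8 of the 13 the bases TC came just before the core, against 11 of the other 68 cores on X, a feature noted after seeing them. They were sites of middling strength: pooled signals ran from 121.0 (the promoter of ins-39) to 313.0 (an exon of pks-1, a polyketide synthase gene), with a median of 216, and ranks from 465 to 1755. All 12 overlapped a peak among the 2465 strongest of both replicates. So did 94 of the 95 X members in the stronger part of the list, which held 11 of these 12, so the overlap is not particular to them. None was among the 35 X members of ranks 1 to 400, 10 were among the 47 of ranks 401 to 1000, and 2 among the 118 beyond rank 1000. In the stronger part of the list the core was at 11 of 95 X sites (11.6%) and 0 of 883 autosomal sites (Fisher's exact adjusted p = 2.53e-11). With replicate 1 alone it was at 9 X sites and 3 autosomal sites, and with replicate 2 alone at 11 and 5.

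The MEX core sites were spread along X and lay in several classes of position, with unequal shares. Of the 12, 6 were downstream of genes or intergenic, which is 12.2% of such X members, and 3 were in promoters (2.54% of promoter members). Another 2 were in introns (7.41% of intron members) and 1 in an exon. The shares were not compared by a test. The intergenic site near W02H3.3 (chrX:11094069-11094320) had a signal of 289.5, with 186 in replicate 1 and 99.4 in replicate 2. The site in an intron of mom-1, the Porcupine homologue needed to secrete Wnt, had 268, with 164 in replicate 1 and 115 in replicate 2. The site upstream of nspc-17, a gene of a nematode-specific peptide family, had 304, with 182 and 127 in the same order. Without the core sites, members downstream or intergenic were still 22.9% on X and 14.7% on the autosomes (Fisher's exact adjusted p = 0.0168).

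**Figure D5:**
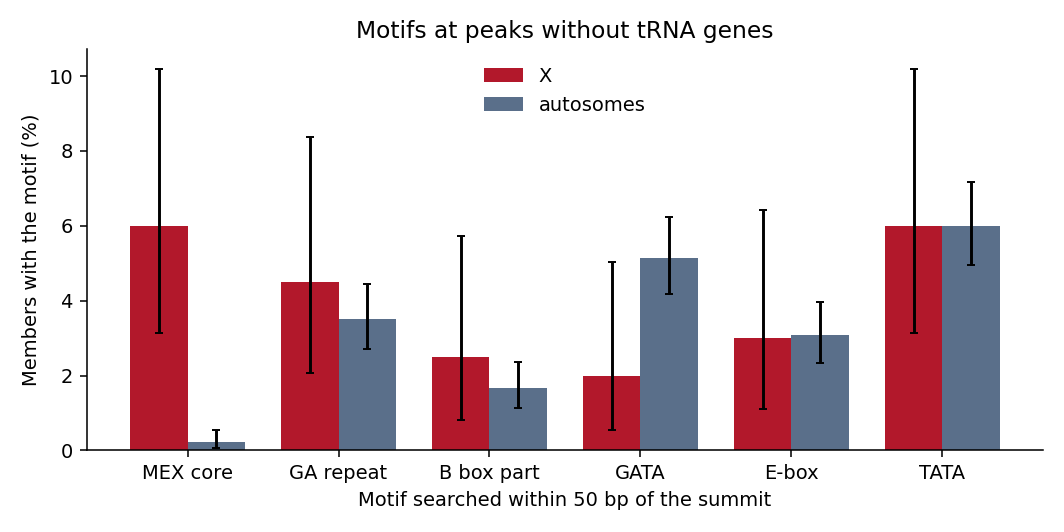
Percent of members with each of 6 motifs within 50 bp of the summit, on X (red) and the autosomes (grey), with exact 95% intervals. The MEX core is at 6.00% of X members and 0.216% of autosomal members, while the TATA motif is at 6.00 and 5.99%.

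The other 5 motifs searched did not differ past the threshold. The GATA motif TGATAA, which intestinal GATA factors recognize, was at 2.00% of X summits and 5.13% of autosomal summits (Fisher's exact adjusted p = 0.163), below the 9.96 and 9.22% of all windows. The GA repeat GAGAGAGA was at 4.50% and 3.51% (adjusted p = 0.641, Fisher's exact test), and GGTTCGA, part of the B box inside tRNA genes, at 2.50% and 1.67% (also 0.641). The E-box CACGTG was at 3% and 3.08% and TATAAA at 6.00% and 5.99%, both with an adjusted p of 1.00 by Fisher's exact test.

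Short words of the autosomal sites also occurred at the X sites. The leading word, GACGCA, was within 50 bp of 29 of 200 X summits (14.5%) and of 184 of 1180 summits on the 3 autosomes not used to rank words (15.6%; Fisher's exact adjusted p = 0.845), and at 250 to 300 bp from the summit it was at 3% and 3.31%. At least one of the 10 leading words was at 61.5% of X summits (exact 95% interval 54.4 to 68.3) and 55.1% of those autosomal summits (52.2 to 57.9), against 16.5 and 19.6% at the flanks. Among ranks 1 to 500 the shares were 37 of 41 on X (90.2%) and 78.2% on those autosomes. The words did not move as one: ACGCGC was at 22% of X summits against 13.1%, AACGCG at 20% against 11.9%, and ATGCGC at 7.50% against 12.5%, differences that were not tested. In the printed sequences the intergenic site near Y73B3A.1 carried 12 word matches, the promoter of C14A11.9 had 6, and the promoter of mans-3 had 1. Overlapping words were counted separately, so matches are not separate elements, and they covered 32, 16 and 6 bases in the same order.

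X sites were also richer in G and C than their surroundings. The median GC content was 50.5% within 50 bp of X summits and 46.5% of autosomal summits, against 33.3 and 36.3% at the flanks. Soft-masked repeat sequence made up 13.5% of the X windows and 23.8% of the autosomal ones, and 30.6% and 36.8% of the chromosomes as a whole. Along X the sites were spread out, with 94 of 200 in the central 50% of the chromosome's length (47.0%, exact 95% interval 39.9 to 54.2), against 62.7% on the autosomes (60.4 to 64.9). Single autosomes ran from 51.6% on IV (46.2 to 56.9) to 68.9% on III (64.2 to 73.2). The intervals of IV and of II (51.2 to 62.3) overlap that of X. Full megabases held from 3 to 20 members with a median of 11, the most between 14 and 15 Mb. The longest stretch without one, 734 kb, ran from the summit at 34610 to the one at 768264 between trap-2 and ile-2.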

How the data were processed

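ChIP-seq peak lists for 2 biological replicates of 1 group were used. Per the labels, they map ZTF-18-GFP in whole young adults. The authors deposited narrowPeak lists for each replicate (26104 and 27612 relaxed peaks), a relaxed list from both, and the thresholded list of 2465. The signal of a peak is the value the authors deposited, and its scale is not stated; the sources used here do not give the peak caller, the aligner or the threshold. Read depth is unknown, so no interval covers it. Summits were placed on WBcel235 with gene annotation release 115. The members and gene lists were chosen with earlier results of these data known.

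The 9 comparisons of X with autosomal members used exact binomial or two-sided Fisher's exact tests, Benjamini-Hochberg adjusted, with a threshold of 0.05. They treat peaks as units, so p-values do not measure spread between replicates. Share intervals are exact Clopper-Pearson 95% intervals and, like the Poisson ones, cover counting error only. Words came from 2080 strand-collapsed words of 6 bases. Promoters reached from 1000 bp upstream to 200 bp downstream of gene 5′ ends, and the downstream class reached 1000 bp past 3′ ends; a summit took the first class that applied, in the order promoter, first exon, other exon, intron, downstream, intergenic. Replicate values are those of the strongest overlapping peak (at least 1 bp), whose summit can lie away from that of the member. Genes named in the text were the bound or nearest genes of the 20 strongest members, the 8 strongest outside promoters, bound list members, and summits nearest the 150 bp limit; those at MEX core sites, shared promoters and small RNA genes were named after their values were seen. Lists with under 3 X genes are not described. Alternatives covered other distances, promoter windows, list depth, each replicate alone, repeated intervals, ce10 and chromosome centres. Tests were tried on simulated data. Python 3.11.15, numpy 2.4.6, pandas 2.3.3, scipy 1.17.1 and matplotlib 3.10.9 were used.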

Additional observations from a re-analysis of the deposited data

How the results depend on the processing

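Of the recomputed values, 88 kept their direction and their side of the threshold, and the other 13 are given here. Under every alternative run, X had fewer sites per Mb (ratios 0.401 to 0.845), fewer bound genes, fewer sites near small RNA genes and more sites with the MEX core, each past the threshold. In the stronger part of the list the excess of downstream and intergenic sites was 8.82 points and missed it. The promoter deficit passed at -8.61 points against the middle of the autosomes and at -10.2 with promoters of 500 bp. The deficit among the 500 strongest passed with no tRNA filter, at -7.64 points on ce11 and -7.98 on ce10 (its density used ce11 lengths). Differences that never passed changed sign. Introns gave 1.87 points against the middle and 0.0337 with promoters of 2000 bp. Overlap with both replicates gave -0.0769 at a tRNA distance of 300 bp and -0.713 in the stronger part. The leading word gave 0.698 against the middle, 1.48 in the stronger part, 2.31 within 100 bp, and -0.461 to 0.444 with a single replicate. Causes were not tested. No paired analysis was possible because there was 1 group. With 2 replicates and no control samples, spread between animals is not measured, and the 12 MEX core and 6 small RNA sites are few.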

Other observations

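Further X genes with a site in their promoter, chosen for naming after their values were seen and given as values only, included several for the endoplasmic reticulum. These were lnp-1, the lunapark gene that shapes its tubules (pooled signal 778), trap-2 of the translocon-associated complex (282), hsp-3, a BiP chaperone (239), the protein disulfide isomerase gene pdi-6 (198) and atf-6, a sensor of unfolded proteins (195). Among mitochondrial genes, sucl-1 of succinyl-CoA ligase had 469. Genes for other general functions were epn-1, the epsin gene (316), puf-9, a PUF family RNA-binding protein gene (273), the bromodomain gene bet-2 (242), ftt-2, a 14-3-3 protein gene (219), eef-1A.2, a translation elongation factor gene (193), and spc-1, the alpha-spectrin gene (192). No enrichment was tested for these names.

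At 3 words outside the leading 10, X summits differed most from those on the autosomes not used to rank words, a choice made on these values and not tested. AGAGAG was at 24.0% of X summits and 13.8% of those autosomal summits, AGAGTG at 19.5% and 9.75%, and AAGAGA at 23.5% and 14.2%. At the flanks AGAGAG was at 5.50% on X and 5.85% on those autosomes, AGAGTG at 6.00% and 3.73%, and AAGAGA at 14.5% and 8.56%. Both AGAGTG and AAGAGA were thus more frequent on X at the flanks as well as at the summits.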
